A study of Mus musculus with 9 samples.

Results

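The genes described here encode 10 G protein-coupled receptors of islet cells: Gipr, Glp1r, Gcgr, Gpr119, Ffar1, Chrm3, Casr, Adra2a, Galr1 and Sstr3. They were chosen by symbol as receptors through which incretins, nutrients and neurotransmitters act on islets, with earlier results of these data known. All 10 were among the 52459 rows of the count table and among the 16826 genes that passed the low-count filter. RNA sequencing was done on islets of Langerhans of 12-week-old mice, with 3 libraries each of db/db (-/-), db/+ (heterozygous, +/-) and WT (+/+) genotype. All 9 libraries carry the strain label BKS.Cg-Dock7m +/+ Leprdb/J, so the label does not tell which groups hold the coat-colour allele Dock7m. The db allele disrupts the leptin receptor gene Lepr in every tissue, and homozygous mice become obese and diabetic. The labels name no treatment or sex, and do not say whether libraries came from separate or pooled animals, so the p-values cover variation between libraries alone, which may be technical.

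These receptors set how much insulin, glucagon and somatostatin an islet releases at a given glucose level. The receptors of GIP, GLP-1, glucagon and lipid amides (Gipr, Glp1r, Gcgr, Gpr119) couple to Gs and raise cyclic AMP, and those of long-chain fatty acids and acetylcholine (Ffar1, Chrm3) couple to Gq and raise calcium. Casr senses extracellular calcium through Gq and Gi, and the receptors of noradrenaline, galanin and somatostatin (Adra2a, Galr1, Sstr3) couple to Gi and restrain secretion.

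In db/db islets the transcripts of both incretin receptors, of the fatty acid receptor and of the muscarinic receptor fell against both other groups. Gipr fell furthest, to 24.8% of its WT level, followed by Glp1r at 39.6%, Ffar1 at 45.0% and Chrm3 at 56.6%. Galr1 fell slightly against WT, and no receptor of the 10 rose. Levels are given as CPM, counts scaled by TMM-adjusted library totals. Fold changes are log2 values ± SE, and adjusted p comes from the quasi-likelihood test of edgeR, with the Benjamini-Hochberg method applied to every tested gene and a threshold of 0.05.

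Against WT, 5 of the 10 fell, where 19.9% of all tested genes fell, 21.8% rose and 41.7% were called in either direction. A fall of at least 2-fold was called for 3 of the 10, beside 4.18% of all tested genes. For 4 of the 10 every db/db library lay below every WT library, as for 25.3% of all tested genes. Against db/+, 4 of the 10 fell, where 19.7% of tested genes fell, 20.6% rose and 40.3% were called either way, and 2 fell at least 2-fold, beside 4.04%. Every db/db library lay below every db/+ library for 5 of the 10, as for 26% of tested genes. The shares of receptors that fell lie above these backgrounds, but the 10 genes were chosen as a group with earlier results of these data known. This difference was therefore not tested and cannot be read as a trait of such receptors. The median fold change of the 10 was -0.25 against WT and -0.24 against db/+, and that of all tested genes was 0.01 in each comparison. Leaving out the 3 libraries that held both Xist and Y-linked counts (db/db 1, WT 1 and WT 3) kept WT 2 as the only WT library. Fold changes against WT were then -1.93 for Gipr, -1.40 for Glp1r, -1.05 for Ffar1 and -0.70 for Chrm3, and 4 of the 10 fell against db/+. The remaining db/db libraries held almost no Y-linked counts, and WT 2 and db/+ almost no Xist. Sex makeup and db/db genotype thus cannot be told apart in that fit. Against db/+ they cannot be told apart in the main fit either. Xist stood at 308 to 948 CPM in db/db libraries and at 0.162 to 0.506 CPM in db/+ libraries.

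Between db/+ and WT, edgeR called 0 of the 10, where it called 1.43% of all tested genes, 0.82% lower, 0.606% higher and 0.0238% at least 2-fold lower. DESeq2 and limma-voom also called 0, and 2 of the 10, Ffar1 and Galr1, had an unadjusted p under 0.05. Fold changes lay between -0.32 for Ffar1 and 0.17 for Gcgr.

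Library totals were 8860024 to 11734886 counts. Xist and Y-linked counts occurred together in db/db 1, WT 1 and WT 3, db/db 2 and 3 held almost no Y-linked counts, and db/+ and WT 2 almost no Xist, so sex makeup differs between the groups. Lars2 and Gm42418, a locus that overlaps ribosomal RNA sequence, took 17.9% and 13.3% of counts in db/db 1 and 2, 0.0558% in db/db 3 and at most 2.58% in db/+ and WT. Lepr had 2.05 to 9.47 CPM in db/db, 1.52 to 4.37 CPM in db/+ and 1.72 to 3.17 CPM in WT, but gene-level counts cannot show the db splicing defect. Of beta cell markers 7 of 10 fell, Iapp rose and Ins1 and Ins2 were not called, with a median log2 fold change of -1.32 against WT. The summed list stood at 91969 to 125208 CPM in db/db islets and 83874 to 121523 CPM in WT islets. Ins1 and Ins2 make up most of this sum, so it does not reflect the 7 that fell. Of alpha cell markers 8 of 10 fell and 2 rose (10032 to 11535 CPM in db/db islets, 10729.5 to 19295 CPM in WT islets), of delta markers 1 of 5 fell, and neither PP marker was called. Markers of other cells rose against WT in 12 of 21 cases for acinar, 7 of 8 for duct, 6 of 10 for endothelial, 8 of 12 for stellate and pericyte and 3 of 10 for macrophage genes, and 0 of 3 for lymphocyte genes. Of Schwann cell and neuron genes 1 of 6 fell. No defining marker was at 0 in a whole group except Cd3e and Cd3g in db/+. The part of any of these shifts in the receptor results was not tested, apart from the alternatives given.

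The 250 bases before the annotated start are shown for Glp1r, which fell in both comparisons, and for Adra2a and Gpr119, which were not called. In these 3 the window ends at the base next to the edge of the gene given below. They are RefSeq windows of GRCm38.p6 (mm10), 5′ to 3′ on the strand of the gene, and capitals mark matches to 3 searched patterns: CANNTG, the E-box bound by basic helix-loop-helix factors, TGACG, the core of the cyclic AMP response element, and TATAAA, the TATA box.
Glp1r, plus strand, chr17:30901617-30901866: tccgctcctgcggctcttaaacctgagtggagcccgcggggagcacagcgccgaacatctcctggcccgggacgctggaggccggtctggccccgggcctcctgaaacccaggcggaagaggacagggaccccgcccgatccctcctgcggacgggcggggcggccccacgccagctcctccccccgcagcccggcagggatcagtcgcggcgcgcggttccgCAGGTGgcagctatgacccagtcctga
Adra2a, plus strand, chr19:54045009-54045258: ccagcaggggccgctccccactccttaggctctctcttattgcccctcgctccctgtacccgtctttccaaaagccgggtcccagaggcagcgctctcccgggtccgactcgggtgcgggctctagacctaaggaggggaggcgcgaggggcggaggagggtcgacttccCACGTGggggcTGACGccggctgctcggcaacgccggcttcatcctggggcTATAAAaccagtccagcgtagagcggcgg
Gpr119, minus strand, chrX:48674479-48674728: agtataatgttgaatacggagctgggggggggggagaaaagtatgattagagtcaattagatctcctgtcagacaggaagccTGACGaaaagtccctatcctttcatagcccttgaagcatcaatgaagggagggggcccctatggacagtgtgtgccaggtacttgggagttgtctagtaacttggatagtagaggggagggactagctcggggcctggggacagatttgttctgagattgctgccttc
CANNTG occurred once before Glp1r and once before Adra2a, and 66.2% of all 32851 windows of this length hold it. TGACG occurred once before Adra2a and once before Gpr119 (17.8% of all windows), and TATAAA once before Adra2a (12.4%). TAATTA, also searched, was in none of the 3 (4.84% of all windows). All patterns were searched on both strands. CpG dinucleotides numbered 26 for Glp1r, 22 for Adra2a and 3 for Gpr119, beside a median of 6. Windows were matched for 8 of the 10 genes, all but Gipr and Galr1, and those of Chrm3, Gcgr, Casr and Sstr3 belong to transcript starts inside the gene interval and are not printed. That of Ffar1 is not printed either, since its gene model of 903 bases may hold no UTR.

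Gipr (chromosome 7, 19156063 to 19170248, mm10) encodes the receptor of GIP, the incretin of intestinal K cells. It stood at 39.8, 43.0 and 45.7 CPM in db/db islets, 139.7, 167 and 171 CPM in db/+ islets and 179, 168 and 171 CPM in WT islets. Every db/db library lay far below every other library, and db/+ and WT overlapped. The fold change was -2.01 ± 0.09 against WT (adjusted p = 3.68e-09) and -1.89 ± 0.09 against db/+ (adjusted p = 5.97e-09). In bulk islets, fewer cells of a type and less RNA per cell cannot be told apart, here and for every receptor below.

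Glp1r (chromosome 17, 30901867 to 30936510) encodes the receptor of GLP-1, which enhances glucose-stimulated insulin secretion. Its libraries had 127, 157 and 149 CPM in db/db islets, 277, 389 and 349.9 CPM in db/+ islets and 370.4, 403 and 322 CPM in WT islets. The db/db libraries again lay below all others, while db/+ and WT overlapped. Its fold change reached -1.34 ± 0.13 against WT (adjusted p = 6.73e-06) and -1.23 ± 0.13 against db/+ (adjusted p = 1.38e-05). Gipr fell further than Glp1r: the ratio of Gipr to Glp1r counts within a library was 0.312, 0.274 and 0.307 in db/db islets, against 0.504, 0.429 and 0.490 in db/+ islets and 0.483, 0.418 and 0.532 in WT islets. All db/db ratios were below all others, with a log2 difference of -0.68 from WT and -0.67 from db/+ (exact two-sided permutation test, p = 0.1 each, the smallest that 3 against 3 libraries can give).

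Gcgr (chromosome 11, 120529185 to 120538989), the glucagon receptor gene and a class B relative of both incretin receptors, had 48.0, 54.0 and 48.2 CPM in db/db islets, 48.6, 54.5 and 50.6 CPM in db/+ islets and 47.8, 48.9 and 40.0 CPM in WT islets. The groups overlapped in all comparisons. The fold change was 0.13 ± 0.10 against WT (adjusted p = 0.279) and -0.03 ± 0.09 against db/+ (adjusted p = 0.809), and the 95% interval against WT ran from -0.10 to 0.37. The ratio of Gcgr to Glp1r counts was 0.377, 0.344 and 0.323 in db/db islets, against 0.175, 0.140 and 0.145 in db/+ islets and 0.129, 0.122 and 0.124 in WT islets. It was higher in each db/db library than in any other, by 1.48 on the log2 scale over WT and 1.19 over db/+ (exact two-sided permutation test, p = 0.1 each, the smallest possible).

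Gpr119 (chromosome X, 48667979 to 48674478), a receptor of fatty acid amides, was the lowest of the 10, with 9.61, 7.93 and 8.84 CPM in db/db islets, 10.03, 14.1 and 7.26 CPM in db/+ islets and 11.6, 9.75 and 7.01 CPM in WT islets. The groups overlapped. With 64 to 167 counts per library its fold change was loosely determined, at -0.11 ± 0.24 against WT (adjusted p = 0.733) and -0.25 ± 0.24 against db/+ (adjusted p = 0.437). The 95% interval against WT, -0.71 to 0.48, includes falls larger than that of Galr1.

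**Figure D1:**
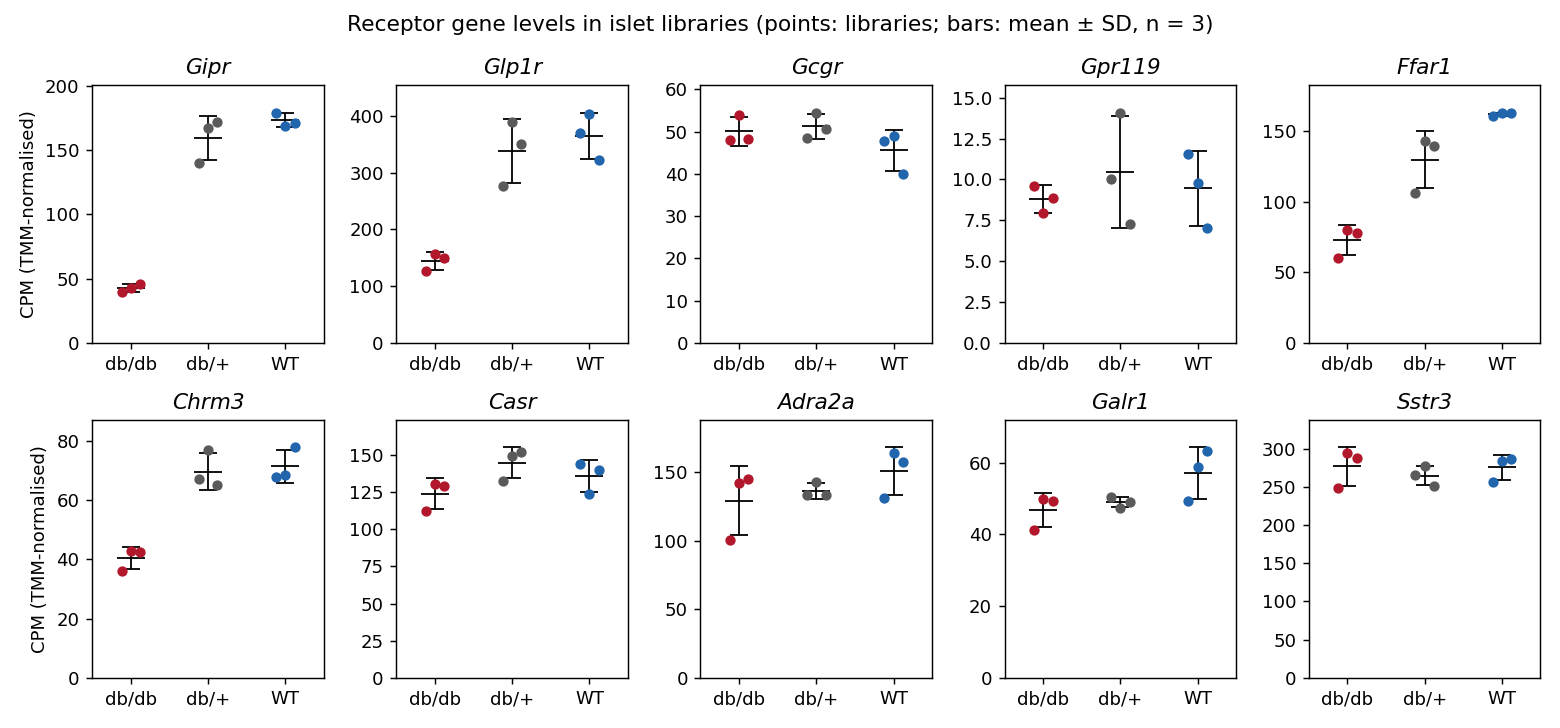
Levels of the 10 receptor genes in CPM (vertical axes from 0, a scale for each gene) in db/db, db/+ and WT libraries; points are libraries and bars the mean ± SD of 3. The db/db points of Gipr, Glp1r, Ffar1 and Chrm3 lie below all other points.

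Ffar1 (chromosome 7, 30860568 to 30861470) encodes the receptor through which long-chain fatty acids amplify insulin secretion. It had 60.4, 79.8 and 77.8 CPM in db/db islets, 106, 143 and 139.6 CPM in db/+ islets and 161, 163 and 162 CPM in WT islets. No groups overlapped, and db/+ lay between db/db and WT. Ffar1 changed by -1.15 ± 0.12 against WT (adjusted p = 1.34e-05) and -0.83 ± 0.12 against db/+ (adjusted p = 0.000193). Between db/+ and WT it was -0.32 ± 0.12 and did not pass (adjusted p = 0.212). No other receptor of the 10 had all db/+ libraries below all WT libraries, an order seen in 10.4% of tested genes.

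Chrm3 (chromosome 13, 9875486 to 10361062) encodes the M3 muscarinic receptor, by which parasympathetic nerves enhance insulin secretion. It had 36.1, 42.7 and 42.3 CPM in db/db islets, 67.2, 76.9 and 65.1 CPM in db/+ islets and 67.8, 68.7 and 77.9 CPM in WT islets. The db/db libraries stood apart, and db/+ and WT overlapped. Chrm3 changed by -0.82 ± 0.10 against WT (adjusted p = 1.78e-05) and -0.79 ± 0.10 against db/+ (adjusted p = 2.69e-05). RefSeq places Gm26861 within the Chrm3 locus, with at most 1 count in any library, and no gene over the other 9.

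Casr (chromosome 16, 36490585 to 36562141), the calcium-sensing receptor gene, had 112, 131 and 129.5 CPM in db/db islets, 133, 149 and 152 CPM in db/+ islets and 144, 124 and 140.1 CPM in WT islets. The db/db libraries lay below all db/+ libraries but overlapped WT. Neither fold change passed, at -0.13 ± 0.09 against WT (adjusted p = 0.245) and -0.22 ± 0.09 against db/+ (adjusted p = 0.0573). Against db/+ it passed without db/+ 1 or without WT 2, with an adjusted p from 0.0303 to 0.215 over single libraries left out.

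Sstr3 (chromosome 15, 78537014 to 78549365), a somatostatin receptor gene whose product sits on primary cilia, had 248, 295 and 288 CPM in db/db islets, 265, 277 and 252 CPM in db/+ islets and 257, 285 and 286 CPM in WT islets. The 3 groups overlapped. Fold changes were 0.01 ± 0.08 against WT (adjusted p = 0.966) and 0.07 ± 0.08 against db/+ (adjusted p = 0.574), with a 95% interval of -0.20 to 0.21 against WT. The ratio of Sstr3 to Glp1r counts was 1.95, 1.88 and 1.93 in db/db islets, against 0.958, 0.714 and 0.720 in db/+ islets and 0.694, 0.707 and 0.889 in WT islets. It was above 1 in every db/db library and below 1 in every other, a log2 difference of 1.34 from WT and 1.28 from db/+ (exact two-sided permutation test, p = 0.1 each, the smallest possible). Such ratios do not depend on the scaling of libraries and show unequal change only. They were computed for 3 pairs in 3 comparisons, 9 in all, and adjusted over these none is below 0.1. The ratios were not planned, and each joins Glp1r with a receptor whose reported fold change differs. Their tests therefore largely restate those fold changes and add no separate evidence.

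Adra2a (chromosome 19, 54045259 to 54048982), by which noradrenaline inhibits insulin secretion, had 100.2, 142 and 145 CPM in db/db islets, 133, 143 and 133 CPM in db/+ islets and 131, 164 and 158 CPM in WT islets. Only db/db 1 lay below the range of the other libraries, and it was also the library with the most acinar counts. Fold changes were -0.22 ± 0.13 against WT (adjusted p = 0.197) and -0.08 ± 0.13 against db/+ (adjusted p = 0.68), and the value was 0.22 against WT with acinar content as a covariate.

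Galr1 (chromosome 18, 82392496 to 82406777), the receptor gene of the inhibitory neuropeptide galanin, had 41.3, 49.9 and 49.2 CPM in db/db islets, 50.4, 47.5 and 49.0 CPM in db/+ islets and 49.3, 58.9 and 63.3 CPM in WT islets. WT 1 lay inside the db/db range, so these groups overlapped. Galr1 changed by -0.28 ± 0.10 against WT (adjusted p = 0.0408) and -0.06 ± 0.10 against db/+ (adjusted p = 0.661). The call against WT was lost without db/db 1, db/db 3, db/+ 2, db/+ 3, WT 2 or WT 3 (adjusted p from 0.0088 to 0.149 over single libraries left out), and also by DESeq2 and limma-voom.

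**Figure D2:**
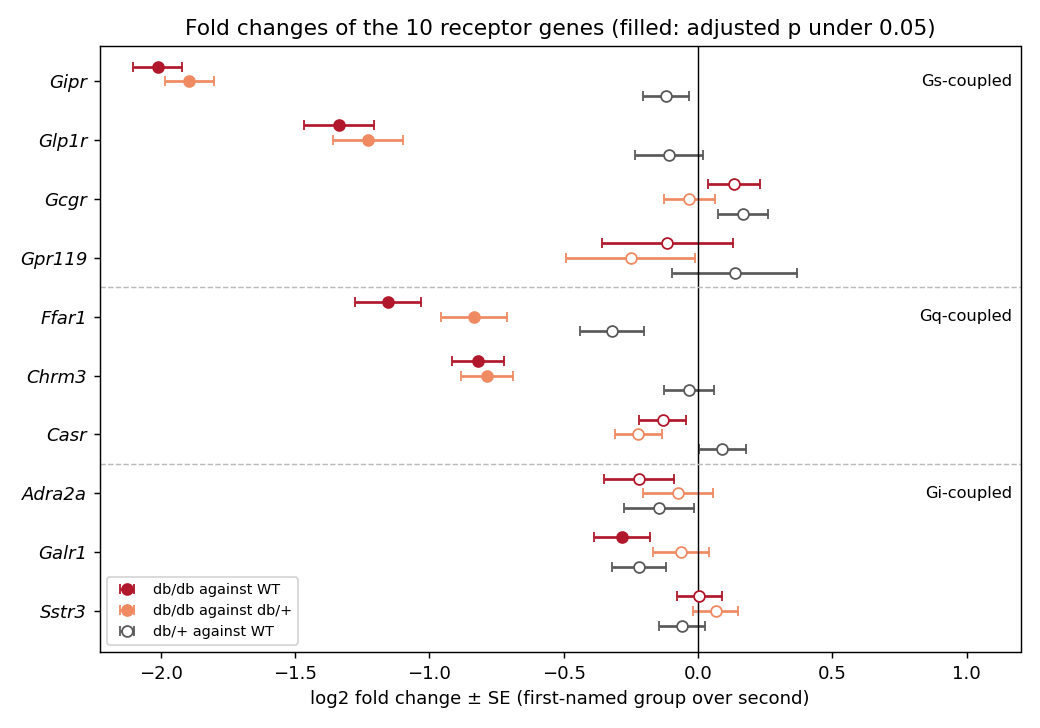
Log2 fold change ± SE of each receptor gene (horizontal axis, first-named group over second) in the 3 comparisons, grouped by G protein coupling; filled points have an adjusted p under 0.05. Gipr, Glp1r, Ffar1 and Chrm3 are filled in both db/db comparisons, and no point of db/+ against WT is filled.

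**Figure D3:**
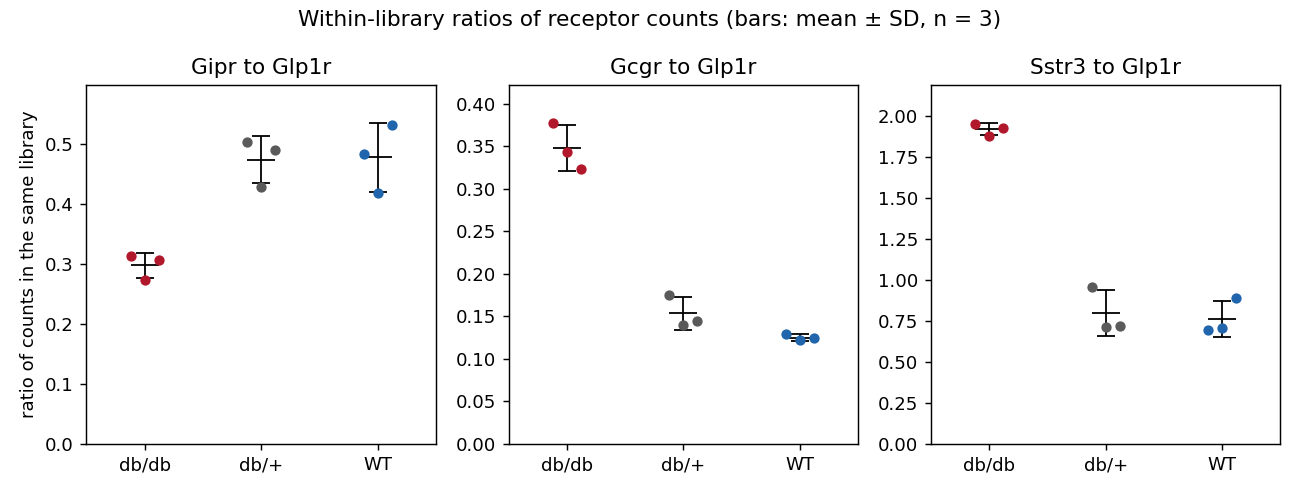
Ratios of the counts of 2 receptor genes within a library (vertical axes from 0) in db/db, db/+ and WT; points are libraries and bars the mean ± SD of 3. Gipr to Glp1r averages 0.298 in db/db, 0.474 in db/+ and 0.478 in WT, while the other ratios are higher in db/db.

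Per kilobase of exon, receptor levels can be compared with each other. In db/db islets Glp1r led with 95.8 ± 10.2 CPM per kilobase (SD, n = 3), followed by Ffar1 (80.5 ± 11.8), Sstr3 (70.5 ± 6.398), Adra2a (34.01 ± 6.64), Casr (26.3 ± 2.19), Gipr (23.9 ± 1.65), Chrm3 (20.7 ± 1.91), Gcgr (18.3 ± 1.25), Galr1 (16.3 ± 1.67) and Gpr119 (3.87 ± 0.370). In WT islets Glp1r also led, with 242 ± 26.9 CPM per kilobase, followed by Ffar1 (179 ± 1.169), Gipr (96.5 ± 3.04), Sstr3 (70.3 ± 4.20), Adra2a (39.7 ± 4.54), Chrm3 (36.7 ± 2.87), Casr (28.9 ± 2.28), Galr1 (19.9 ± 2.497), Gcgr (16.7 ± 1.77) and Gpr119 (4.16 ± 1.01). Gipr was thus the sixth in db/db and the third in WT. Neighbours whose mean ± SD overlapped were, in WT, Adra2a with Chrm3 and Galr1 with Gcgr, and in db/db, Glp1r with Ffar1, Ffar1 with Sstr3, Adra2a with Casr, Casr with Gipr, Gipr with Chrm3, Chrm3 with Gcgr and Gcgr with Galr1. Exon lengths come from an older annotation, in which Ffar1 (903 bases) and Glp1r (1507 bases) hold little or no untranslated sequence, so their levels per kilobase may be too high. Other lengths, such as those of Gipr (1792 bases) and Chrm3 (1949 bases), may also lack untranslated sequence, so the ranks are approximate.

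Over the 9 libraries, Pearson correlations of log2 CPM between any pair of Gipr, Glp1r, Ffar1 and Chrm3 were 0.942 to 0.980. Gipr correlated at -0.213 with Gcgr and -0.143 with Sstr3, and Adra2a at 0.859 with Galr1. The libraries share depth and group structure, so these values are descriptive. Of 16826 genes, 1432 correlated above 0.9 with Gipr, 1223 with Glp1r, 1117 with Chrm3 and 847 with Ffar1, against 19 with Casr, 14 with Galr1, 11 with Gcgr, 6 with Adra2a, 3 with Sstr3 and 1 with Gpr119. The closest to Gipr were Cfap97 (0.996), Npas4 (0.995) and Srebf1 (0.995), and to Glp1r Pi4kb (0.997), Armc5 (0.992) and Sltm (0.992). For Ffar1 they were Stat2 (0.989), Mcm3ap (0.989) and Bcr (0.989), and for Chrm3 Ddx55 (0.996) and Arhgef12 (0.993). The gene closest to Gcgr was Arsa (0.950), to Gpr119 Xylt2 (0.910), to Casr Ccdc89 (0.952), to Adra2a Ubxn10 (0.959), to Galr1 Gng12 (0.954) and to Sstr3 Armcx4 (0.945).

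Lists of related genes are given by their counts, to be read beside the 19.9% of all tested genes that fell and the 21.8% that rose in db/db against WT. Of class B receptors, 4 of 10 tested genes fell and 3 rose in db/db against WT (median -0.10), and against db/+ 4 fell and 3 rose. The 2 receptors of vasoactive intestinal peptide are Vipr1 and Vipr2: Vipr1 fell to 53.0 ± 11.3 CPM in db/db islets, against 99.6 ± 2.26 CPM in WT islets (-0.90 ± 0.12, adjusted p = 7.51e-05), and Vipr2 rose to 7.67 ± 1.97 CPM in db/db islets, against 1.53 ± 0.415 CPM in WT islets (2.30 ± 0.30, adjusted p = 4.41e-05). Crhr1, the receptor gene of corticotropin-releasing hormone, was the fourth that fell, with 0.283 ± 0.188 CPM in db/db islets, near the level of 3 counts, against 2.39 ± 0.736 CPM in WT islets (adjusted p = 0.000133). Pth1r, the parathyroid hormone receptor gene, rose to 1.81 ± 0.456 CPM in db/db islets, against 0.588 ± 0.300 CPM in WT islets (1.58 ± 0.44, adjusted p = 0.0105). Crhr2, a receptor gene of urocortins, rose to 2.41 ± 0.803 CPM in db/db islets, against 1.003 ± 0.274 CPM in WT islets (1.26 ± 0.37, adjusted p = 0.0149), a call lost without db/db 3 or WT 2, with an adjusted p from 0.0125 to 0.0998 over single libraries left out.

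Of fatty acid and nutrient receptors 3 of 14 fell and 2 rose (median -0.08), and against db/+ 3 fell and 2 rose. The short-chain fatty acid receptors are Ffar2 and Ffar3: Ffar2 rose to 40.9 ± 4.11 CPM in db/db islets, against 19.2 ± 1.54 CPM in WT islets (1.09 ± 0.13, adjusted p = 1.47e-05), and Ffar3 fell to 8.96 ± 3.65 CPM in db/db islets, against 19.4 ± 2.61 CPM in WT islets (-1.11 ± 0.23, adjusted p = 0.00242). Gpbar1, the bile acid receptor gene, rose to 1.69 ± 0.412 CPM in db/db islets, against 0.234 ± 0.0733 CPM in WT islets (2.77 ± 0.52, adjusted p = 0.000792), with WT near or under the level of 3 counts. Hcar1, the lactate receptor gene, fell to 2.64 ± 0.188 CPM in db/db islets, against 4.66 ± 1.117 CPM in WT islets (-0.82 ± 0.24, adjusted p = 0.0138), a call lost without WT 1, with an adjusted p from 0.0143 to 0.0739 over single libraries left out.

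Among adrenergic receptors edgeR called 0 of 4 (median -0.23), and Adra1a and Adrb1 averaged at most 1.69 CPM in any group. Without db/db 1, 1 of that list fell. Of muscarinic receptors Chrm3 fell and Chrm2, which couples to Gi, rose to 12.1 ± 2.21 CPM in db/db islets, against 6.09 ± 1.172 CPM in WT islets (0.99 ± 0.22, adjusted p = 0.00302), among 3 tested. That call was lost with the first letter of the sample title as a covariate and with Y-linked counts as a covariate (log2 fold change from 0.74 to 1.24 over the 21 alternatives). Of 3 tested somatostatin receptors, Sstr2 fell to 1.55 ± 0.279 CPM in db/db islets, against 3.38 ± 0.253 CPM in WT islets (-1.13 ± 0.33, adjusted p = 0.0138). That call was lost with the first letter of the sample title as a covariate, with acinar content as a covariate, with Y-linked counts as a covariate and without the 3 libraries holding both Xist and Y-linked counts (log2 fold change from -1.35 to -0.80 over the 21 alternatives). Sstr1 rose to 1.68 ± 0.603 CPM in db/db islets, against 0.460 ± 0.227 CPM in WT islets (1.87 ± 0.53, adjusted p = 0.0128), a call lost without db/db 2, WT 1 or WT 2, with an adjusted p from 0.00935 to 0.0654 over single libraries left out.

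Of galanin, NPY, opioid, ghrelin, melatonin and similar receptors 3 of 10 fell and 1 rose (median 0.08). Avpr1b, a vasopressin receptor gene, fell to 1.77 ± 0.892 CPM in db/db islets, against 4.49 ± 0.774 CPM in WT islets (-1.33 ± 0.30, adjusted p = 0.00309). That call was lost with acinar content as a covariate and without the 3 libraries holding both Xist and Y-linked counts (log2 fold change from -2.37 to -0.76 over the 21 alternatives). Cnr1, a cannabinoid receptor gene, fell to 2.94 ± 1.07 CPM in db/db islets, against 7.47 ± 2.22 CPM in WT islets (-1.36 ± 0.44, adjusted p = 0.0322), a call lost without db/db 1, db/db 3, WT 1 or WT 3, with an adjusted p from 0.00274 to 0.112 over single libraries left out. Cckar, a cholecystokinin receptor gene that acinar cells express, rose to 26.7 ± 13.6 CPM in db/db islets, against 6.18 ± 2.58 CPM in WT islets (2.08 ± 0.54, adjusted p = 0.0205), a call lost without WT 2 or WT 3, with an adjusted p from 0.0142 to 0.0578 over single libraries left out. Summed acinar markers were 19694 to 54885 CPM in db/db islets and 7037 to 13273 CPM in WT islets. That call was lost with the first letter of the sample title as a covariate, with acinar content as a covariate and without the 3 libraries holding both Xist and Y-linked counts (log2 fold change from 0.41 to 3.03 over the 21 alternatives).

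Of purine and other islet receptors 8 of 20 rose and 2 fell (median 0.67), and of adhesion and orphan receptors 7 of 18 rose and 2 fell (median 0.20). Adora1, the Gi-coupled adenosine A1 receptor gene, fell to 9.03 ± 0.879 CPM in db/db islets, against 33.5 ± 5.53 CPM in WT islets (-1.89 ± 0.14, adjusted p = 2.87e-07), close in size to the fall of Gipr. Of the GABA-B receptor subunits, Gabbr2 rose to 60.1 ± 10.2 CPM in db/db islets, against 36.6 ± 6.14 CPM in WT islets (0.72 ± 0.13, adjusted p = 0.000955). That call was lost with the first letter of the sample title as a covariate and with Y-linked counts as a covariate (log2 fold change from 0.35 to 1.09 over the 21 alternatives). Gabbr1 fell to 32.8 ± 4.07 CPM in db/db islets, against 40.8 ± 3.53 CPM in WT islets (-0.32 ± 0.11, adjusted p = 0.0261), a call lost without db/db 3 or WT 3, with an adjusted p from 0.0202 to 0.125 over single libraries left out. Ptger4, a prostaglandin E2 receptor gene, and Ednrb, an endothelin receptor gene, rose, at 1.75 ± 0.21 (adjusted p = 1.68e-05) and 0.90 ± 0.12 (adjusted p = 5.89e-05). Lower orphan and adhesion genes were Adgrl3 (-0.96 ± 0.08, adjusted p = 6.59e-07) and Gpr158 (-0.65 ± 0.10, adjusted p = 0.000166), and higher ones were Gprc5a (2.26 ± 0.38, adjusted p = 0.000359), Adgrl4 (0.53 ± 0.12, adjusted p = 0.00333) and Gprc5b (0.66 ± 0.18, adjusted p = 0.0109). Endothelial markers summed to 657 to 891 CPM in db/db islets and 576 to 627 CPM in WT islets, and stellate and pericyte markers to 793 to 2094 and 256 to 367 CPM in db/db and WT islets. Their part in these rises was not tested.

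**Figure D4:**
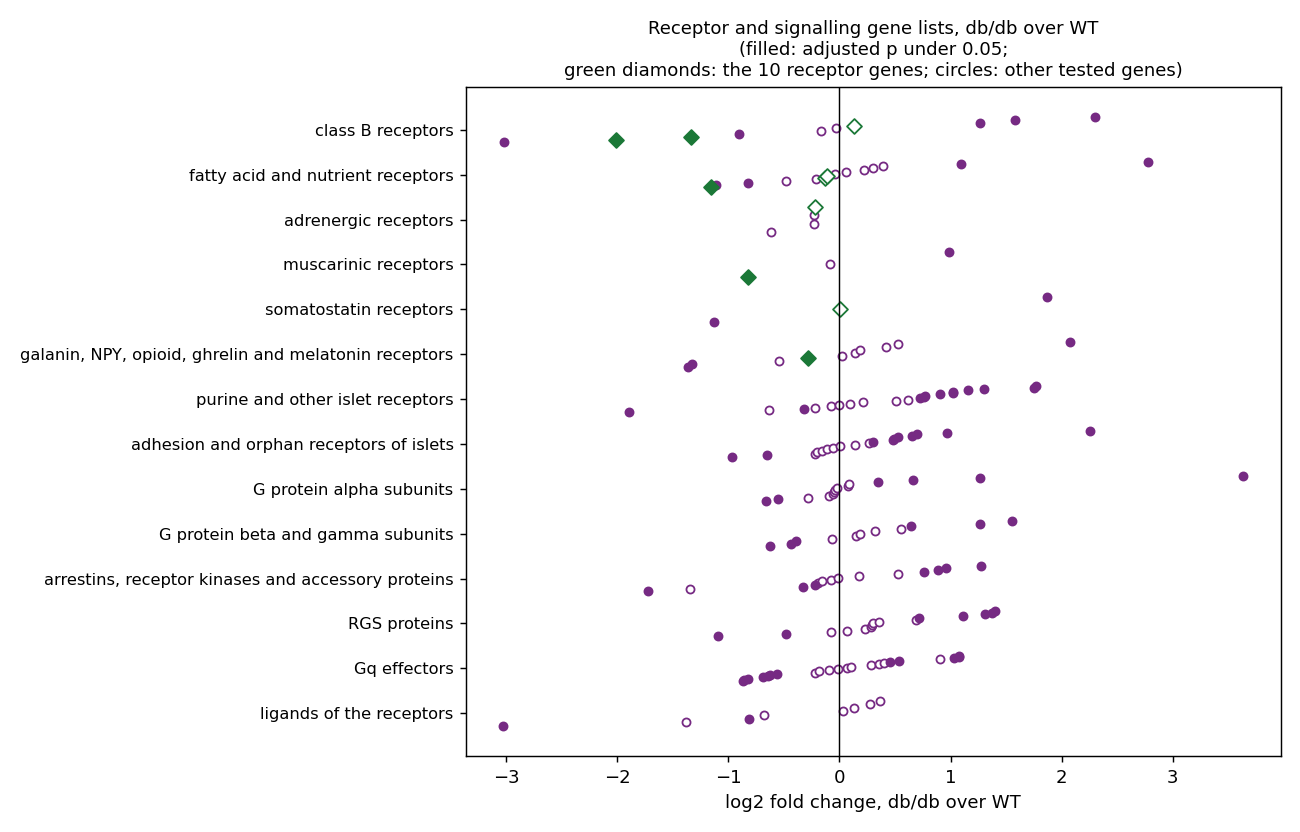
Log2 fold change of db/db over WT (horizontal axis) for every tested gene of the receptor and signalling lists (rows); filled symbols have an adjusted p under 0.05, and the 10 receptor genes are set apart from other genes by symbol. Among class B receptors Gipr stands at -2.01 and Vipr2 at 2.30.

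Among the transducers of these receptors, 4 of 14 tested G protein alpha subunit genes rose and 2 fell. Gnas, which encodes the Gs alpha subunit, rose to 1529 ± 52.7 CPM in db/db islets, against 966 ± 30.0 CPM in WT islets (0.66 ± 0.08, adjusted p = 1.85e-05), while the Gs-coupled incretin receptors fell. Gna14, of the Gq class, rose to 18.7 ± 7.86 CPM in db/db islets, against 1.47 ± 0.633 CPM in WT islets (3.64 ± 0.34, adjusted p = 4.4e-06), and Gnat2, a transducin gene, rose by 1.26 ± 0.12 (adjusted p = 2.21e-06). Gnai2, an inhibitory subunit gene, fell to 144 ± 9.93 CPM in db/db islets, against 228 ± 18.3 CPM in WT islets (-0.67 ± 0.09, adjusted p = 7.98e-05), and Gnao1, the Go subunit gene, fell to 248 ± 21.7 CPM in db/db islets, against 364 ± 40.3 CPM in WT islets (-0.55 ± 0.10, adjusted p = 0.000447). Gnao1 had 269.5 ± 17.4 CPM in db/+ islets and was also lower there than in WT (-0.43 ± 0.10, adjusted p = 0.0444). Of beta and gamma subunits 3 of 11 rose, Gng2 (1.27 ± 0.21, adjusted p = 0.000541), Gnb4 (0.65 ± 0.14, adjusted p = 0.0021) and Gng11 (1.55 ± 0.41, adjusted p = 0.0102). The 3 that fell were Gng4 (-0.62 ± 0.09, adjusted p = 0.000103), Gnb1 (-0.44 ± 0.08, adjusted p = 0.000526) and Gng12 (-0.39 ± 0.12, adjusted p = 0.0172), the last lost without db/db 1, WT 2 or WT 3, with an adjusted p from 0.00152 to 0.0795 over single libraries left out.

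Of arrestins, receptor kinases and accessory proteins, which end or shape receptor signals, 4 of 14 rose and 3 fell, shares near those of all tested genes. Grk5, a receptor kinase gene, fell to 9.41 ± 1.92 CPM in db/db islets, against 30.9 ± 4.08 CPM in WT islets (-1.73 ± 0.15, adjusted p = 9.8e-07). The endosomal sorting gene Snx27 (-0.33 ± 0.08, adjusted p = 0.00337) fell, as did the kinase gene Grk3 (-0.22 ± 0.08, adjusted p = 0.0331), lost without db/db 1, db/db 3, WT 1 or WT 3, with an adjusted p from 0.0335 to 0.123 over single libraries left out. Arrb1, which encodes beta-arrestin 1, rose to 30.7 ± 14.4 CPM in db/db islets, against 12.6 ± 1.36 CPM in WT islets (1.27 ± 0.28, adjusted p = 0.00533), and the class B accessory genes Ramp1 (0.89 ± 0.22, adjusted p = 0.00597) and Ramp3 (0.96 ± 0.24, adjusted p = 0.00613) rose. Of RGS genes, whose products speed the shut-off of Gi and Gq, 5 of 15 rose and 2 fell (median 0.30). Rgs9 rose to 132 ± 8.26 CPM in db/db islets, against 50.9 ± 4.86 CPM in WT islets (1.37 ± 0.09, adjusted p = 9.32e-08). Also higher were Rgs17 (0.72 ± 0.11, adjusted p = 0.000138) and Rgs5 (1.31 ± 0.11, adjusted p = 8.36e-07), a pericyte gene, and lower were Rgs3 (-1.09 ± 0.14, adjusted p = 3.57e-05) and Rgs11 (-0.48 ± 0.12, adjusted p = 0.00658). Of Gq effectors 7 of 22 fell and 5 rose. The phospholipase gene Plcg1 (-0.63 ± 0.07, adjusted p = 1.4e-05) and the protein kinase C genes Prkca (-0.82 ± 0.10, adjusted p = 1.52e-05) and Prkcb (-0.65 ± 0.09, adjusted p = 4.93e-05) fell, and the diacylglycerol kinase genes Dgkg (1.07 ± 0.15, adjusted p = 6.5e-05), Dgkb (1.08 ± 0.18, adjusted p = 0.000292) and Dgkz (0.54 ± 0.10, adjusted p = 0.00053) rose.

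Of a list of ligand and transmitter genes of these and related receptors, 2 of 8 fell and 0 rose against WT. Against db/+ 4 fell and 1 rose. Gcg, whose product is processed to glucagon and GLP-1, fell to 8139 ± 724 CPM in db/db islets, against 14294 ± 4229 CPM in WT islets (-0.81 ± 0.19, adjusted p = 0.00625). That call was lost with acinar content as a covariate and without the 3 libraries holding both Xist and Y-linked counts (log2 fold change from -1.21 to -0.21 over the 21 alternatives). Npy, a neuropeptide gene, fell to 2.07 ± 1.14 CPM in db/db islets, against 16.5 ± 2.34 CPM in WT islets (-3.03 ± 0.40, adjusted p = 0.000258). Sst, the somatostatin gene, had 1071 ± 147 CPM in db/db islets, 1493 ± 152 CPM in db/+ islets and 1046 ± 39.7 CPM in WT islets. It was not called against WT (0.03 ± 0.11, adjusted p = 0.825) and was lower than in db/+ (-0.48 ± 0.11, adjusted p = 0.00356). Gal, the galanin gene, had 0.884 ± 0.892 CPM in db/db islets and 0.641 ± 0.575 CPM in WT islets (adjusted p = 0.821), and Gip had 0 counts in every library.

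The title letter was H for db/db and WT 3 and G for db/+, WT 1 and WT 2, so its effect was estimated within WT alone. Without the 3 libraries holding both Xist and Y-linked counts, WT 2 was the only WT library. Losses of calls in these fits, here and above, therefore rest on few WT libraries. Calls in db/db against WT of further relatives named above depended on the fit. With the first letter of the sample title as a covariate, those of Adgrl4, Cnr1, Crhr2, Gnb4, Gng11, Grk3, Hcar1, Ramp1, Ramp3, Rgs11 and Sstr1 were lost. With acinar content as a covariate, those of Adgrl4, Arrb1, Cnr1, Crhr2, Dgkz, Ffar3, Gabbr1, Gnao1, Gnb1, Gnb4, Gng11, Gng12, Gng4, Gpr158, Gprc5b, Grk3, Hcar1, Pth1r, Ramp1, Ramp3, Rgs11 and Snx27 were lost. With Y-linked counts as a covariate, those of Cnr1, Crhr2, Dgkz, Gabbr1, Gnb1, Gng12, Gprc5b, Hcar1, Ramp3, Snx27 and Sstr1 were lost. Without the 3 libraries holding both Xist and Y-linked counts, those of Cnr1, Gabbr1, Gng11, Gprc5b, Grk3, Hcar1, Pth1r, Ramp1, Rgs11, Snx27 and Sstr1 were lost. With library totals alone, those of Adgrl4, Dgkz and Gprc5b were lost. Without a low-count filter, that of Cnr1 was lost. By limma-voom, that of Cnr1 was lost. In a fit of the compared groups alone, that of Grk3 was lost.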

How the data were processed

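RNA was harvested from purified islets with Trizol and libraries followed the Illumina Ribo-Zero Gold procedure, per the labels' protocols. The submitters' processing notes name bcl2fastq 2.20.0.422, TopHat2 2.0.14 and the mm10 build. Deposited values are unnormalised whole-number counts for each gene symbol. How reads were assigned to genes (program, annotation, strand) is not given in the sources used here. Overlapping or antisense genes may therefore share reads. The table has 1 column that matches no sample, which was left out.

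Groups come from the genotype labels. Replicate numbers follow accession order and pair nothing. Genes were filtered with filterByExpr, scaled with TMM, and tested in a single fit over the 9 libraries with edgeR 4.0.16 under R 4.3.3 (6 residual degrees of freedom, common biological coefficient of variation 0.129). SE was derived from the fold change and F statistic. For a library, 3 counts, the most that a count of 0 allows, equal 0.238 to 0.412 CPM, for counting error only. Log2 CPM used a prior count of 2. Alternatives used DESeq2 1.42.0 and limma 3.58.1. The fit was also run on simulated counts with the same spread for all genes. Those counts held no sex, acinar or ribosomal RNA differences between libraries, so that run does not cover them.

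The 10 receptors and all lists were chosen with earlier results of these data known. Each list contributes by name at most 3 risen and 3 fallen genes with the smallest adjusted p in db/db against WT. Crhr1, Sst, Gal, Gip, Adra1a, Adrb1, Iapp, Cd3e and Cd3g were named after their values were seen. The ratios between receptors were not part of the plan. For likeness, up to 3 genes with the highest correlation are named, predicted genes left out. Some items are not reported here. Positions and promoter windows are from RefSeq on GRCm38.p6.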

Additional observations from a re-analysis of the deposited data

How the results depend on the processing

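Gipr, Glp1r, Ffar1 and Chrm3 kept their calls against db/+ under 21 alternatives, and against WT under all that kept more than 1 WT library. For the fit that kept 1 WT library only their fold changes are given, and all stayed negative. Over the 21, fold changes against WT were -2.23 to -1.93 for Gipr, -1.55 to -1.16 for Glp1r, -1.50 to -1.04 for Ffar1 and -1.08 to -0.59 for Chrm3. The title letter differed between all db/db (H) and all db/+ (G) libraries, and within WT only WT 3 was H. With this covariate, letter and genotype are separated only through WT 3, so that fit is no independent check of a batch. Y-linked counts did not overlap between db/db (0.108 to 176 CPM) and db/+ libraries (373 to 417 CPM). The fit with Y-linked counts as a covariate is therefore no independent check of sex. Galr1 lost its call against WT under 12 of the 21 and stood at 0.00907 with acinar content as a covariate (adjusted p = 0.975, range 0.00341 to 0.975). With library totals alone the median of all genes was -0.22 against WT, calls split into 5317 lower and 2176 higher in place of 3348 and 3670, and Casr (-0.35) and Adra2a (-0.43) were called lower. Casr was also called lower against WT with Y-linked counts (-0.43), and against db/+ with library totals (-0.44), without a low-count filter (-0.25) and with Y-linked counts (-0.71), and Adra2a was called lower against WT without a filter (-0.26). Against db/+ the split was 5265 and 2011 in place of 3314 and 3459. Without a low-count filter 1 of the 10, Ffar1, was called lower in db/+ than in WT. Of all genes, 7018 were called in db/db against WT, and 4425 with the first letter of the sample title as a covariate, 3533 with acinar content, 3719 with Y-linked counts and 4449 without the 3 libraries holding both Xist and Y-linked counts, an alternative chosen after seeing the data. Without those libraries the fold changes were -1.93 for Gipr, -1.40 for Glp1r, -1.05 for Ffar1 and -0.70 for Chrm3. In db/db against db/+ the count was 6773, with 2033 under the title letter and 1914 under Y-linked counts. In db/+ against WT it was 240, with 768 without a filter, 641 by DESeq2, 45 under the title letter, 105 under acinar content, 27 under Y-linked counts, 97 without the 3 libraries and 23 to 430 with a single library left out. The causes of these shifts were not tested. Low counts limit Gpr119 most. No paired analysis was possible because the labels carry no replicate numbers.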
